A study of Mus musculus with 2 samples.

Results

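The cells described here were dendritic cells from mouse lung that carried transcripts of the cell division machinery. They came from 1 single-cell RNA library of CD172a-sorted lung cells of C57BL/6 mice aged 8 to 10 weeks, labelled cDC2 (conventional dendritic cells type 2). A second library, of XCR1-sorted cells labelled cDC1, was made in the same way, with dispase to free the cells. No treatment or genetic change is given in the labels for either sort, and the sources used here do not say how many mice went into each library. Values are UMI counts, in which each captured transcript is counted once, as the authors deposited them.

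Cycling cells were chosen by their raw counts of 9 genes. A cell was called cycling when the raw UMIs of Mki67, Top2a, Birc5, Cdk1, Ccna2 and Ube2c added to 4 or more (the cycle sum), those of Mgl2 and Cd209a to 3 or more, and Fscn1 had fewer than 3. The first 6 genes serve DNA untangling, mitotic kinases and exit from mitosis. Mgl2 and Cd209a are lectins of cDC2, and Fscn1 marks mature, migrating dendritic cells. Of 2835 barcodes that passed the quality limits, 393 met the rule, which is 13.9% (exact binomial 95% interval 12.6 to 15.2). They were set beside 1134 cells of the same gate with a cycle sum of 0, called non-cycling below, while 951 cells with a cycle sum of 1 to 3 lay between. All were drawn from 1 library, so no difference below has a replicate check or a p-value. All intervals are at the 95% level and cover counting error only.

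A dividing cell copies its DNA in S phase and parts the copies in mitosis, and each step has its own set of genes. Copying needs the MCM helicase, polymerases, nucleotides and new histones. Mitosis needs kinetochores, a spindle and the kinases that time them. Conventional dendritic cells arise from bone marrow precursors that divide, and part of the cells that have reached a tissue still divide there under the growth factor receptor Flt3.

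Of the 6 cDC2 markers, Mgl2 and Cd209a were part of the rule, so the label is read from the other 4. Clec10a, a lectin, stood at 158 CPM (counts scaled by the summed counts of those cells) in cycling cells and 146 CPM in non-cycling cells. Itgam, which encodes the integrin CD11b, stood at 121 CPM in cycling and 156 CPM in non-cycling cells, and Cd209d, another lectin, had a log2 ratio of -0.78, cycling over non-cycling cells. Sirpa, which encodes the sorted protein CD172a, stood at 124 CPM (interval 117 to 132) in cycling cells and 120 CPM (115 to 126) in non-cycling cells. Markers of cDC1 summed to 44.2 CPM in cycling cells and 52.2 CPM in non-cycling cells, with Xcr1, the marker of the other sort, at 3.45 CPM in cycling and 4.18 CPM in non-cycling cells. Iqgap3, a scaffold protein of dividing cells that the rule did not use, was seen in 169 cycling cells (43.0%), against 7 non-cycling cells (0.617%).

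The rule's own genes only describe the choice. In cycling cells Mki67 had a median of 5 UMIs per cell and a highest value of 55, and was seen in 377 of the 393. Top2a had a median of 7 UMIs and Birc5 of 3, while Cdk1 was seen in 171 cells and Ccna2 in 186. All 6 genes were present in 112 cells (28.5%). The cycle sum had a median of 20 and reached 170. Mgl2 stood at 1152 CPM in cycling cells and 1662 CPM in non-cycling cells, and Cd209a at 727 CPM in cycling and 872 CPM in non-cycling cells. Of 420 kept cells with a cycle sum of 4 or more, 18 missed the lectin limit alone, 6 the Fscn1 limit alone and 3 both.

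Cycling cells held more RNA molecules. They had a median of 19409 UMIs and 3645 genes per cell, against 11963 UMIs and 2552.5 genes in non-cycling cells, 1.62 times as many UMIs. With every cell thinned to 5000 UMIs the medians were 1702.5 genes in cycling cells and 1525 genes in non-cycling cells. Depth differed with the cycle sum. Cells at a sum of 2 had a median of 13795 UMIs, those at 3 had 13448, those at 4 had 14406.5, and those at 32 or more had 21466. The rule counts raw UMIs, so that a deeper cell can reach 4 more readily, and doublets were not removed; how much these add was not tested. With barcodes over the 95th percentile of UMIs left out, 329 cycling cells remained and the ratio of medians was 1.54. Of the kept barcodes in both libraries 5 share their sequence, and 1 of these is a cycling cell of the cDC2 sort.

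The limit of 4 lies in a continuum. A score that leaves out the 6 rule genes was made from 72 replication and nucleotide genes and 97 mitosis, kinetochore and spindle genes. It was counted at 5000 UMIs per cell. These are division genes too, so the score is not a separate check of the rule. Its median was 8 UMIs at a cycle sum of 0, 10 at a sum of 3 (just outside the rule, 127 cells) and 10.5 at a sum of 4 (just inside, 46 cells). It reached 36.5 at a sum of 8 to 15 and 75 at a sum of 32 or more. The lowest-scoring cycling cells were thus close to their neighbours outside the rule in these genes.

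Cycling cells differed in which of the replication and mitosis genes they carried. In non-cycling cells the 99th percentile was 13 UMIs for each of the replication and mitosis scores. These limits were chosen after seeing the data. Of the cycling cells with 5000 UMIs (all but 1), 135 (34.4%) exceeded it in both, 155 (39.5%) in mitosis alone, 9 (2.30%) in replication alone and 93 (23.7%) in neither. The mitosis-alone cells had medians of 8 replication and 41 mitosis UMIs, and the cells above in both had 21 and 54. Non-cycling cells had medians of 4 and 4, so the mitosis-alone cells were not without replication genes. Those above in neither had medians of 5 and 5 UMIs and a median cycle sum of 5. These are ranges of a score and not cell types, and 71 cells had replication scores between 10.4 and 16.25 and 22 had mitosis scores there. Among the 933 cells between, 46 (4.93%) exceeded either limit. So did 15 of 1101 non-cycling cells (1.36%), a share that follows from how the limits were set.

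**Figure D1:**
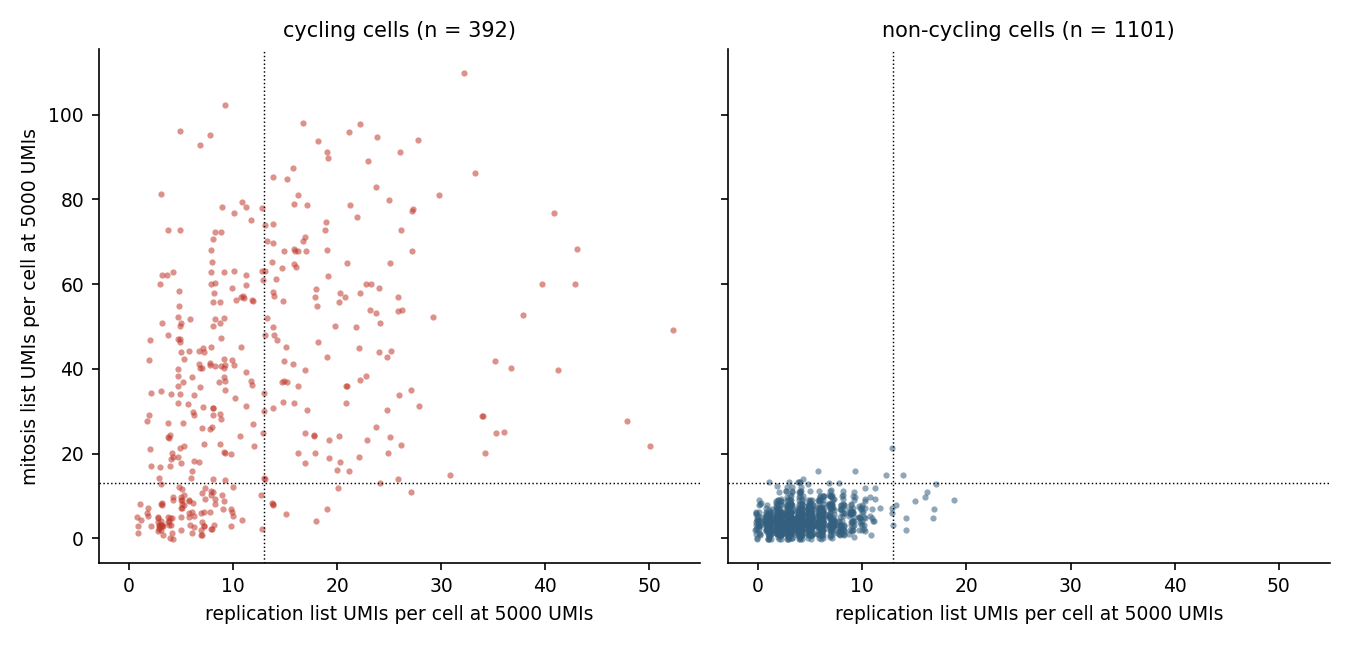
Replication list UMIs (horizontal) and mitosis list UMIs (vertical) of each cell after thinning to 5000 UMIs, with points shifted slightly at random so that they can be seen; dotted lines mark 13 UMIs. Cycling cells reach 110 mitosis UMIs, and the 1101 non-cycling cells lie almost all under both lines.

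Division genes differed most between cycling and non-cycling cells, which choosing the cells by 6 division genes largely sets in advance. UMIs were summed over each set of cells and scaled to CPM, genes at or above 10 CPM in at least 1 of the sets were taken as measured, and a ratio of 2-fold or more was called. Of 6657 genes measured, 425 were higher in cycling cells (6.38%) and 37 were lower (0.556%), with a median log2 ratio of 0.16 over all. At a cycle sum of 2 or more 225 were higher and 11 lower, and 58 were lower with cells thinned to 5000 UMIs and 63 under median-of-ratios scaling. Without the 9 rule genes the counts were 419 higher (6.3%) and 37 lower. Of the 425, 279 passed 10 CPM through the cycling cells alone and so had to be higher to enter at all. In the replication, chromatin, mitosis, kinetochore and spindle lists at most 1 measured gene was not called higher, while no gene of the cDC2 identity list was called.

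**Figure D2:**
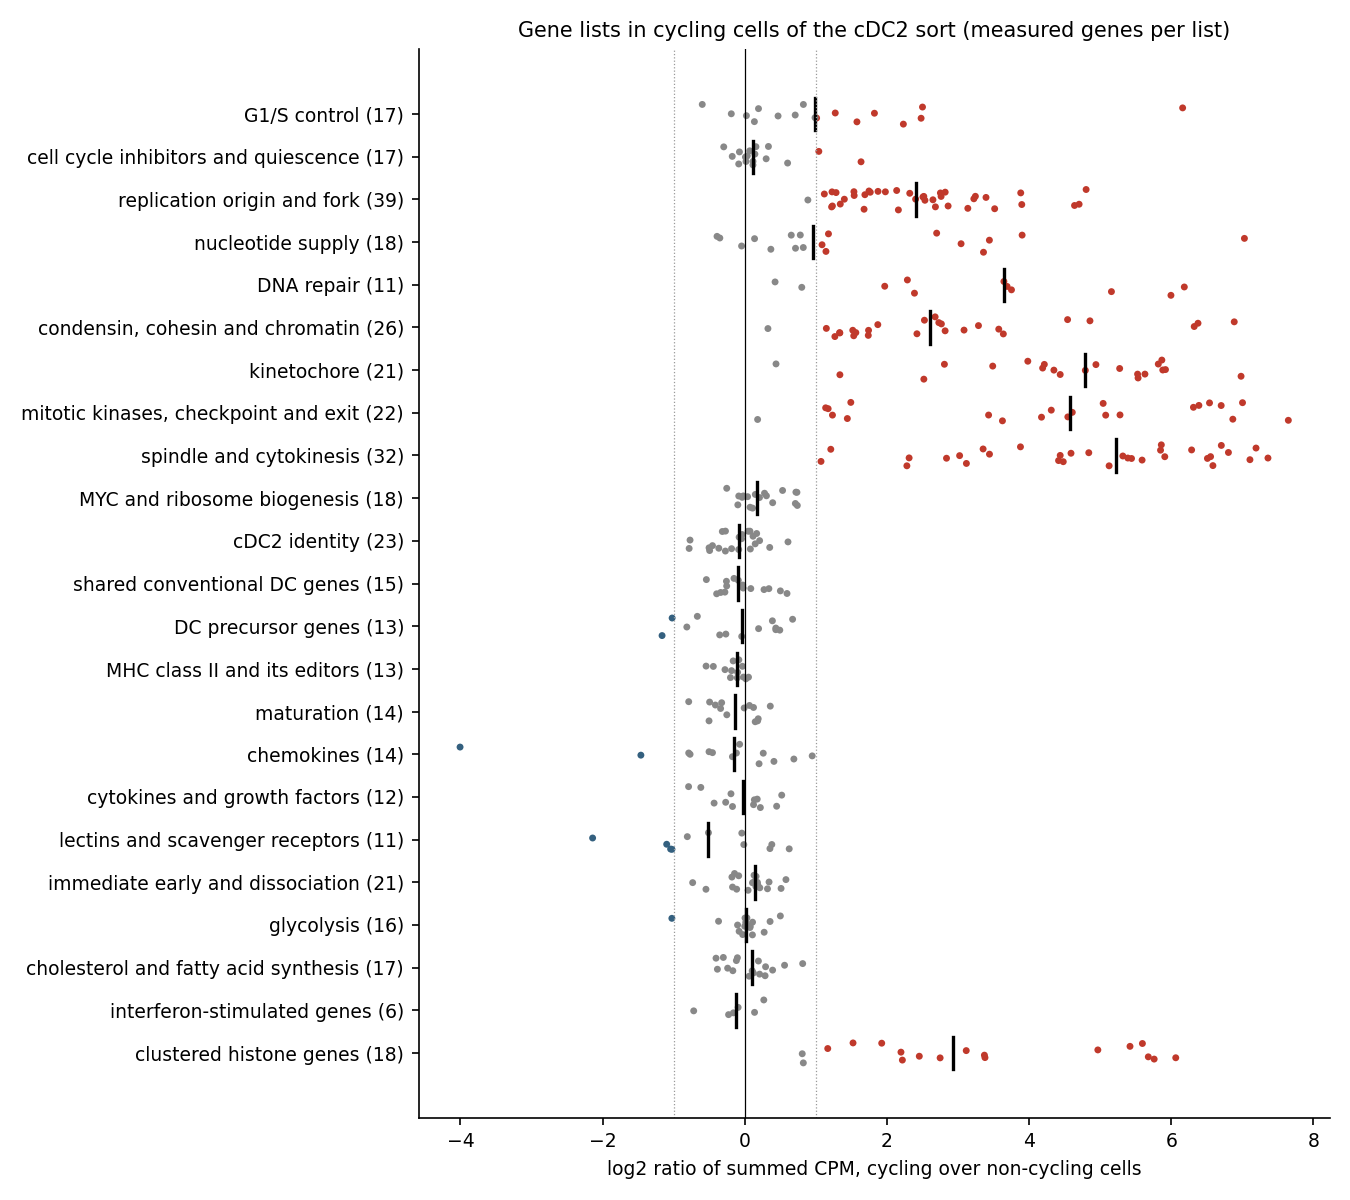
Log2 ratio of summed CPM, cycling over non-cycling cells, for each measured gene of 23 lists, the rule genes left out. Points are genes (red 2-fold higher, blue 2-fold lower, grey between), black bars are list medians, and dotted lines mark 2-fold. Medians reach 5.22 for spindle genes, and those of the identity lists are -0.08 and -0.09.

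Mitotic entry, checkpoint and exit genes formed one of these lists. Of 34 genes, 22 were measured and 21 were higher, with a median log2 ratio of 4.58, and 16 had passed 10 CPM through the cycling cells alone. Ccnb1, the cyclin that drives entry into mitosis with Cdk1, stood at 14.2 CPM in cycling cells, against 1 UMI over all non-cycling cells, a ratio of 200 (35.2 to 7985). Bub1, a kinase of the spindle checkpoint, stood at 27.2 CPM in cycling and 0.212 CPM in non-cycling cells, a ratio of 128 (43.3 to 626). Cdca3, which helps trigger entry into mitosis, stood at 82.6 CPM in cycling and 0.708 CPM in non-cycling cells, a ratio of 117 (63.0 to 244). Ccnb2 was 92.9 times higher (56.0 to 167). Ube2s, which extends ubiquitin chains on targets of the anaphase-promoting complex, is abundant in other cells too and stood at 391 CPM in cycling and 144 CPM in non-cycling cells.

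Kinetochore and spindle genes had the highest medians after the rule genes. Of 27 kinetochore genes 21 were measured and 20 were higher, with a median log2 ratio of 4.79. Nuf2, a part of the NDC80 complex that grips microtubules, stood at 17.9 CPM in cycling cells and at 2 UMIs in all non-cycling cells, a ratio of 126 (34.3 to 1054). Knl1 and Spc24, which link the kinetochore to its checkpoint and microtubule parts, were 56.4 and 46.3 times higher. Cenpe, a kinetochore motor, was 49.5 times higher and Cenpf 46.1 times. Of 36 spindle and cytokinesis genes 32 were measured, and all 32 of these were higher, with a median log2 ratio of 5.22. Of the measured genes, 19 kinetochore and 25 spindle genes passed through the cycling cells alone.

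Kif11, the motor that pushes spindle poles apart, was seen in 202 of 393 cycling cells and 9 of 1134 non-cycling cells, with 71.2 CPM (65.4 to 77.4) in cycling and 0.637 CPM (0.291 to 1.21) in non-cycling cells. Prc1, Nusap1 and Tpx2, which bundle or seed spindle microtubules, were 57.6, 60.1 and 43.4 times higher. The tubulins were the most abundant. Tubb5 had a median of 27 UMIs per cycling cell and a highest value of 174, against a median of 1 and a highest value of 17 in non-cycling cells. Its level was 1650 CPM (1622 to 1679) in cycling and 152 CPM (145 to 158) in non-cycling cells, a ratio of 10.9. Tuba1b stood at 1322 CPM in cycling and 152 CPM in non-cycling cells, with reads of near-identical tubulin copies possibly shared.

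Genes of chromosome packaging were also higher. Of 28 condensin, cohesin and chromatin genes 26 were measured and 25 were higher, with a median log2 ratio of 2.60 and 11 passing through cycling cells alone. Hmgb2, a DNA-bending protein, stood at 993 CPM (971 to 1016) in cycling cells and 117 CPM (112 to 123) in non-cycling cells. H2afz, a histone variant made outside S phase too, stood at 2643 CPM in cycling and 1193 CPM in non-cycling cells and was seen in every cycling cell. Esco2, which locks cohesin around new sister chromatids, had 16.7 CPM in cycling cells, against 2 UMIs in all non-cycling cells (ratio 118, interval 32.1 to 987). Ncapd2, a condensin subunit, was 29.0 times higher.

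Genes of origin firing and the replication fork were higher by less, in cells chosen largely by mitosis genes. Of 49 genes 39 were measured and 38 were higher, 32 of the measured passing through cycling cells alone, with a median log2 ratio of 2.40. Asf1b, a histone chaperone of the fork, stood at 39.5 CPM in cycling and 1.42 CPM in non-cycling cells (ratio 27.9, interval 17.7 to 46.3). Clspn and Cdc45, which hold the fork and the helicase together, were 24.9 and 14.9 times higher. Mcm7, a subunit of the helicase, stood at 97.1 CPM (90.4 to 104) in cycling and 8.5 CPM (7.05 to 10.2) in non-cycling cells. Pcna, the sliding clamp, differed least among those named, with 122 CPM (114 to 130) in cycling cells and 56.2 CPM (52.3 to 60.2) in non-cycling cells. At 5000 UMIs 38.8% of cycling and 21.5% of non-cycling cells held a UMI of it, and without thinning 289 of 393 cycling and 517 of 1134 non-cycling cells did.

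Nucleotide supply separated into parts. Of 23 genes 18 were measured and 9 were higher, with a median log2 ratio of 0.95. Rrm2, the subunit that limits deoxynucleotide synthesis, was the highest of the 12 largest ratios at 50 CPM or more, with 55.5 CPM in cycling cells and 0.425 CPM in non-cycling cells (ratio 131, interval 59.5 to 358). Tyms, which makes thymidylate, was 10.9 times higher and Rrm1, the partner subunit of Rrm2, 10.3 times. Nme1, which balances nucleoside triphosphates, stood at 149 CPM in cycling and 154 CPM in non-cycling cells. Of 24 DNA repair genes 11 were measured and 9 were higher, with a median log2 ratio of 3.65. Brca1, which acts in repair by recombination, was 35.7 times higher (18.4 to 79.4), at 22.8 CPM in cycling and 0.637 CPM in non-cycling cells. In these lists 8 and 9 of the measured genes passed through cycling cells alone. Pclaf, a partner of Pcna, stood at 239 CPM in cycling and 3.54 CPM in non-cycling cells.

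Histone genes of the clusters had 18 of 67 measured and 16 higher, with a median log2 ratio of 2.93 and 15 passing through cycling cells alone. Most of these messages lack a poly(A) tail, which the kit captures, and the copies are near-identical, so the values of single genes are uncertain. Hist1h2ap, the most abundant, stood at 691 CPM (673 to 710) in cycling cells and 10.3 CPM (8.73 to 12.2) in non-cycling cells. The list summed to 2384 CPM in cells above both score limits, 1437 CPM in cells above the mitosis limit alone, 69.5 CPM in the 9 cells above the replication limit alone and 211 CPM in cells above neither, against 152 CPM in non-cycling cells. Mcm5, another helicase subunit, stood at 119, 34.4, 110 and 16.3 CPM over the same ranges, against 6.66 CPM in non-cycling cells. It was itself among the genes of the replication score.

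The control of S-phase entry was split between regulators. Of 23 genes 17 were measured and 8 were higher, with a median log2 ratio of 0.99 and 7 passing through cycling cells alone. Foxm1, the transcription factor of mitotic genes, was 71.5 times higher (30.1 to 223), at 25.3 CPM in cycling and 0.354 CPM in non-cycling cells. E2f1, Lin9 and E2f8, of the E2F and DREAM circuits, were 5.66, 5.58 and 4.69 times higher. None of the D-type cyclins, which relay growth signals, was called. Ccnd2 stood at 394 CPM (380 to 408) in cycling cells and 596 CPM (584 to 609) in non-cycling cells, and Ccnd1 at 218 CPM in cycling and 248 CPM in non-cycling cells. Of 21 inhibitor and quiescence genes 17 were measured, and 2 were higher, both of the INK4 family that blocks the D-cyclin kinases. Cdkn2c stood at 18.9 CPM in cycling and 6.09 CPM in non-cycling cells and Cdkn2d at 102 CPM in cycling and 49.5 CPM in non-cycling cells. Cdkn1a, the p21 inhibitor, stood at 340 CPM in cycling and 276 CPM in non-cycling cells, within 2-fold. The list's median log2 ratio was 0.11. Growth genes of the MYC and ribosome biogenesis list had 18 of 22 measured and 0 called. Their median log2 ratio was 0.18, near the 0.16 of all measured genes.

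Upstream sequence of 3 of these genes is shown because each was among the 2 called genes of largest ratio in the mitotic entry list or the replication fork list. Each stretch covers 200 bases before the transcription start in GRCm38.p6, from RefSeq, read 5′ to 3′ on the strand of the gene. Capitals mark CCAAT or its reverse complement ATTGG, and TTTGAA, the core of the element bound by the DREAM and MuvB complexes at mitotic genes. The windows lie at chr13:100786487-100786686 (Ccnb1, minus strand), chr2:127831860-127832059 (Bub1, minus strand) and chr8:83955494-83955693 (Asf1b, plus strand).
Ccnb1: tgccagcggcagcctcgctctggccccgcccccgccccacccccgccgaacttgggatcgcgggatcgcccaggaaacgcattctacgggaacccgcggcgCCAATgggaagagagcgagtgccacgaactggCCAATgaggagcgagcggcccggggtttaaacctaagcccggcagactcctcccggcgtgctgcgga
Bub1: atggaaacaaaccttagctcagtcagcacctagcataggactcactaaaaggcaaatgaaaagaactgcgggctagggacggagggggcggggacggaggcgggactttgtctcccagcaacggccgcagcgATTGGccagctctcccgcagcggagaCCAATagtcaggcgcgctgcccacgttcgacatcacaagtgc
Asf1b: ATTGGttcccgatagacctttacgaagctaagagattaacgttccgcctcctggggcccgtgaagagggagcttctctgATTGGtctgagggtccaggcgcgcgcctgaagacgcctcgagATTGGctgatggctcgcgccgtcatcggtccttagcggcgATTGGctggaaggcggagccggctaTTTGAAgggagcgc
Pole, the fourth gene so chosen, is named only.

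Ccnb1 and Bub1 each held 2 CCAAT matches in these stretches, and Asf1b held 4 and 1 match of TTTGAA. Over the 300-base windows of the table, 45 of 70 promoters of called genes in the 3 mitosis lists held TTTGAA on either strand (64.3%), against 8 of 45 promoters of called replication and nucleotide genes (17.8%) and 17.9% of all 32851 promoters. In the cDC2 identity list, in which no gene was called, 9 of 24 promoters held TTTGAA (37.5%). CCAAT was in 72.9% of the mitosis promoters and 62.2% of the replication promoters, against 37.4% of all promoters. An E2F core (TTTGGCGC, TTTCCCGC, TTTGCCGC or TTTCGCGC, some of which can overlap) was in 4.29% of the mitosis promoters and 26.7% of the replication promoters, against 2.26% of all promoters. Promoters were found for 64 of 73 mitosis genes and 37 of 47 replication genes. Genes with several promoters count more than once, and a match is a description of the letters and not of binding.

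Dendritic cell genes stood close to the level of non-cycling cells. Of 24 cDC2 identity genes 23 were measured and none was called, with a median log2 ratio of -0.08. Of 16 genes shared by conventional dendritic cells 15 were measured and none was called (median -0.09). Both medians lay below the 0.16 of all measured genes. Flt3, the receptor for the growth factor of the lineage, stood at 93.3 CPM (86.7 to 100) in cycling cells and 73.8 CPM (69.4 to 78.4) in non-cycling cells. Zbtb46, a factor of the conventional lineage, stood at 64.9 CPM in cycling and 61.3 CPM in non-cycling cells. Cst3, a protease inhibitor abundant in these cells, stood at 9723 CPM in cycling and 11630 CPM in non-cycling cells. Of 18 precursor genes 13 were measured and 2 were lower. Cd81, a tetraspanin, stood at 114 CPM (106 to 121) in cycling cells and 255 CPM (246 to 263) in non-cycling cells, 2.24-fold lower (2.08 to 2.41). Plac8 stood at 40.3 CPM in cycling and 81.8 CPM in non-cycling cells, and 76% of its non-cycling UMIs lay in 50 cells. Kit, the stem cell factor receptor, was not called, with 72.0 CPM in cycling and 53.2 CPM in non-cycling cells.

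The measured antigen presentation and maturation genes lay within 2-fold. All 13 measured genes of the MHC class II list lay within 2-fold (median log2 ratio -0.11), and Cd74, the invariant chain, stood at 28102 CPM in cycling cells and 34095 CPM in non-cycling cells. Of 20 maturation genes 14 were measured with 0 called and a median log2 ratio of -0.13. The median over all measured genes was 0.16. Cd83 stood at 1151 CPM in cycling and 1057 CPM in non-cycling cells, and Ccr7, the receptor that guides migration to lymph nodes, at 517 CPM in cycling and 688 CPM in non-cycling cells. Fscn1, limited by the rule, is not read here.

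Chemokines differed within the list. Of 18 genes 14 were measured and 2 were lower, with a median log2 ratio of -0.15. Ccl17, a ligand of Ccr4 that draws T cells, had a median of 19 UMIs per cycling cell and a highest value of 595, against a median of 18 and a highest value of 458 in the shallower non-cycling cells. Its summed level was 2187 CPM (2154 to 2220) in cycling and 3779 CPM (3747 to 3811) in non-cycling cells, 1.73-fold lower and so not called. Ccl22, the other Ccr4 ligand, stood at 1099 CPM in cycling and 1558 CPM in non-cycling cells. Cxcl2, a neutrophil attractant, was called, at 98.7 CPM in cycling and 272 CPM in non-cycling cells, and was seen in 100 of 393 cycling and 221 of 1134 non-cycling cells. Of its non-cycling UMIs 87.8% lay in 50 cells, and 17.4% of its cycling UMIs in 1 cell. Cxcl3 had 9 UMIs in cycling cells and 261 in non-cycling cells, all in 13 cells of the non-cycling set.

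Over the 3 larger score ranges, the summed CPM of the chemokine, maturation and MHC class II lists was lowest in cells above both limits. Chemokines summed to 4031 CPM in cells above both limits, 4937 CPM in cells above the mitosis limit alone and 6450 CPM in cells above neither, against 7355 CPM in non-cycling cells. The maturation list, which also holds Ccl17, gave 4956, 6669 and 7929 CPM over those ranges, against 8393 CPM in non-cycling cells. Such sums follow the most abundant genes. Over all cycling cells Ccl17 made up 2187 of 4894 CPM of the chemokine sum, and 3779 of 7355 CPM in non-cycling cells. Its part in these orders was not tested. MHC class II gave 64380, 70568 and 78497 CPM, against 80949 CPM in non-cycling cells. The cDC2 identity list showed no such order, with 5542, 5653 and 5357 CPM, against 5497 CPM in non-cycling cells. The order was not particular to these lists. Inhibitor and quiescence genes gave 3883, 4730 and 4897 CPM, and cytokines and growth factors 4091, 5275 and 5446 CPM. Glycolysis genes went the other way, with 3514, 3466 and 3185 CPM. In the 9 cells above the replication limit alone, chemokines summed to 2526 CPM and maturation genes to 4288 CPM, below the cells above both limits, and MHC class II genes to 73599.8 CPM. Median depths over the 3 ranges were 20122, 20522 and 15188 UMIs per cell, and their part in the order was not tested.

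**Figure D3:**
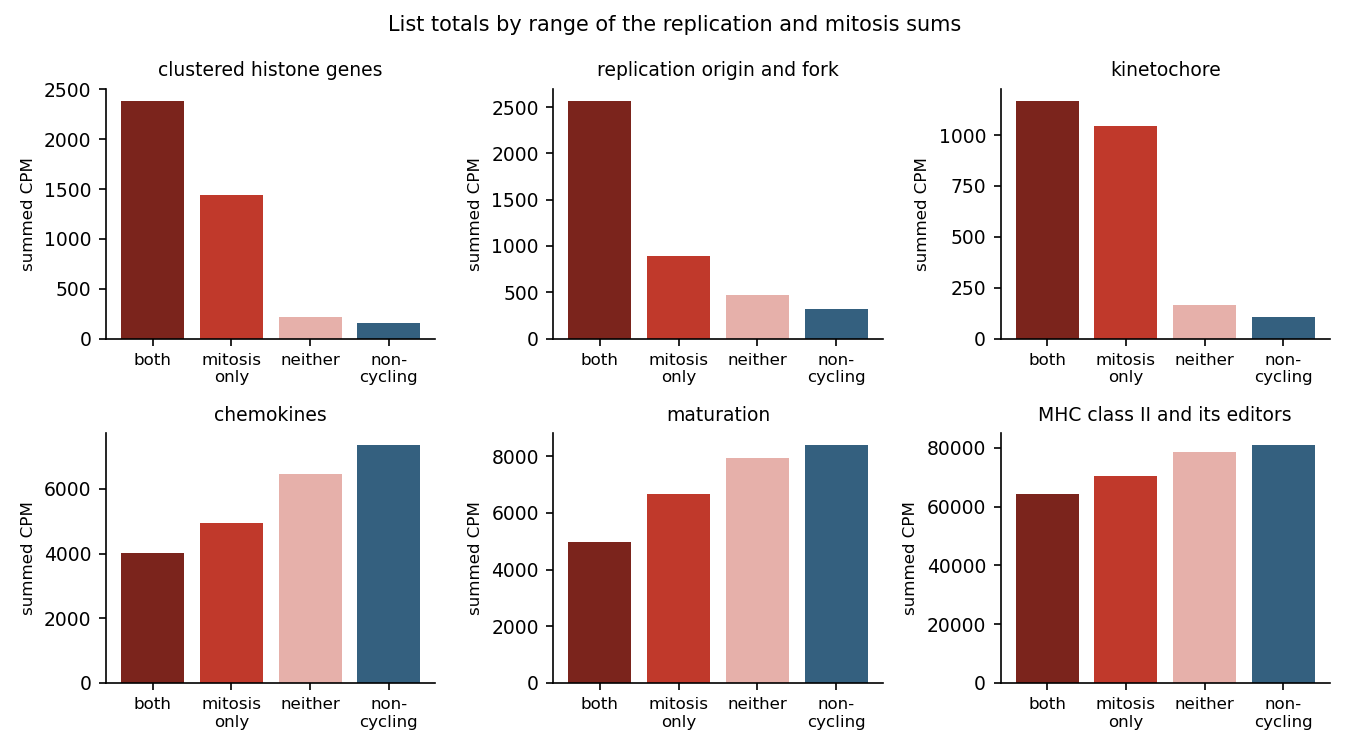
Summed CPM of 6 gene lists in cycling cells above both score limits, above the mitosis limit alone and above neither, and in non-cycling cells; bars start at 0 and have no error bar because there is 1 library. The 9 cells above the replication limit alone are not drawn. Histone, replication and kinetochore totals are highest at the left, and chemokine, maturation and MHC class II totals at the right. Replication and kinetochore genes are part of the scores that set the ranges, so their order follows from the cut.

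The genes with the smallest ratios included macrophage and monocyte genes held by few cells, and CD172a is also found on those cell types. Retnla, a secreted product of macrophages, stood at 94.8 CPM in cycling cells and 685 CPM in non-cycling cells, 7.22-fold lower (6.70 to 7.79). Yet 97.1% of its non-cycling UMIs lay in 50 of 1134 cells, and 37.6% of its cycling UMIs in 1 of 393 cells. Fn1, fibronectin, was 6.14-fold lower, with 95.7% of its non-cycling UMIs in 50 cells and 41.3% of its cycling UMIs in 1 cell. Lpl, Mgp and Lyz1 had 91% to 97% of their non-cycling UMIs in 50 cells. Lyz2, lysozyme of myeloid cells and a near-copy of Lyz1, stood at 546 CPM in cycling and 1432 CPM in non-cycling cells, with a median of 7 UMIs per cell in both sets and 49.4% of the non-cycling UMIs in 50 cells. The complement gene C1qb stood at 28.5 CPM in cycling and 76.8 CPM in non-cycling cells. Ear2, Gda and Fcrls were 2.36-, 2.14- and 2.14-fold lower. Of 20 lectin and scavenger receptor genes 11 were measured and 4 were lower (Cd36, Fcrls, Cd209b and Clec4n), with a median log2 ratio of -0.51.

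Marker lists of other cell types differed in both directions, and their part in the results was not tested. The 8 interstitial macrophage markers (all matched, C1qa, C1qb and C1qc among them) summed to 109 CPM in cycling cells and 192 CPM in non-cycling cells, the 6 classical monocyte markers to 183 CPM in cycling and 377 CPM in non-cycling cells, and the 7 alveolar macrophage markers to 142 CPM in cycling and 320 CPM in non-cycling cells. Cells with 5 or more monocyte UMIs were 83 of 393 cycling and 164 of 1134 non-cycling cells, and for interstitial macrophage markers 34 cycling and 86 non-cycling cells. Of the 6 interstitial macrophage markers measured, C1qa, C1qb and C1qc were called lower and Apoe was called higher, at 19.7 CPM in cycling and 8.64 CPM in non-cycling cells. The 6 nonclassical monocyte markers summed to 769 CPM in cycling cells and 529 CPM in non-cycling cells, and 327 cycling cells (83.2%) and 592 non-cycling cells (52.2%) held 5 or more of their UMIs. Nr4a1, an immediate early gene, made up most of that sum, at 708 CPM in cycling and 497 CPM in non-cycling cells, and Spn was the 1 marker called higher, at 39.4 CPM in cycling and 13.6 CPM in non-cycling cells. The 6 plasmacytoid dendritic cell markers summed to 300.4 CPM in cycling cells and 246 CPM in non-cycling cells, with 5 or more UMIs in 214 cycling cells (54.5%) and 248 non-cycling cells (21.9%). Tcf4 made up most of that sum, at 228 CPM in cycling and 162 CPM in non-cycling cells. Bst2 and Siglech of the same list went the other way, with log2 ratios of -0.47 and -0.19 at 5000 UMIs per cell. Of the 6 markers 2 were measured, with 0 called. Apoe, Spn, Tcf4, Bst2 and Siglech are named after their values were seen. A share of cells at 5 UMIs also moves with depth, which was higher in cycling cells. With cells holding 5 or more UMIs of macrophage, classical monocyte, B, T, NK or neutrophil markers left out, 24 genes were lower and 12 of these were among the 37, an alternative chosen after seeing the data. The log2 ratio of Retnla was then -0.14 and that of Fn1 0.18, while that of Cd81 was -1.09 and of Cxcl2 -1.08. The others of the 12 smallest ratios were mixed. Lpl was at -1.36, Ear2 at -0.99, Lyz1 at -0.98, Gda at -0.83 and Lyz2 at -0.76. C1qb was at -0.53, Mgp at -0.47 and Fcrls at -0.06. Fn1 and the C1q genes are themselves among the markers used to leave cells out. At 5 or more UMIs, B cell markers were found in 20 cycling cells (5.09%) and 9 non-cycling cells (0.794%). NK cell markers summed to 47.6 CPM in cycling cells and 4.11 CPM in non-cycling cells, with 318 of the 372 cycling UMIs in 1 cell. T cell markers were at 2.68 CPM in cycling and 2.05 CPM in non-cycling cells, with Cd3e and Cd3g at 0 in cycling cells.

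Aldoa, a glycolytic aldolase, stood apart from the genes held by few cells. It lies on chromosome 7 from 126795234 to 126800751 (minus strand, GRCm38). It was seen in 333 of 393 cycling cells and 1044 of 1134 non-cycling cells, with a median of 2 UMIs per cycling cell and 3 per non-cycling cell. Its level was 145 CPM (137 to 153) in cycling cells and 295 CPM (286 to 304) in non-cycling cells, 2.04-fold lower (1.91 to 2.18). Of its non-cycling UMIs 14% lay in the 50 highest cells. At 5000 UMIs per cell it was seen in 49.7% of cycling and 71.6% of non-cycling cells. Cells above both score limits stood at 130 CPM, those above the mitosis limit alone at 110 CPM and those above neither at 218 CPM, against 295 CPM in non-cycling cells. It was the 1 gene called among 16 glycolysis genes, all measured, whose median log2 ratio was 0.02. Gapdh stood at 998 CPM in cycling and 780 CPM in non-cycling cells and Ldha at 293 CPM in cycling and 279 CPM in non-cycling cells. The ratio of Aldoa lies close to the 2-fold limit, and thinning to 5000 UMIs gave a log2 ratio of -0.95.

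**Figure D4:**
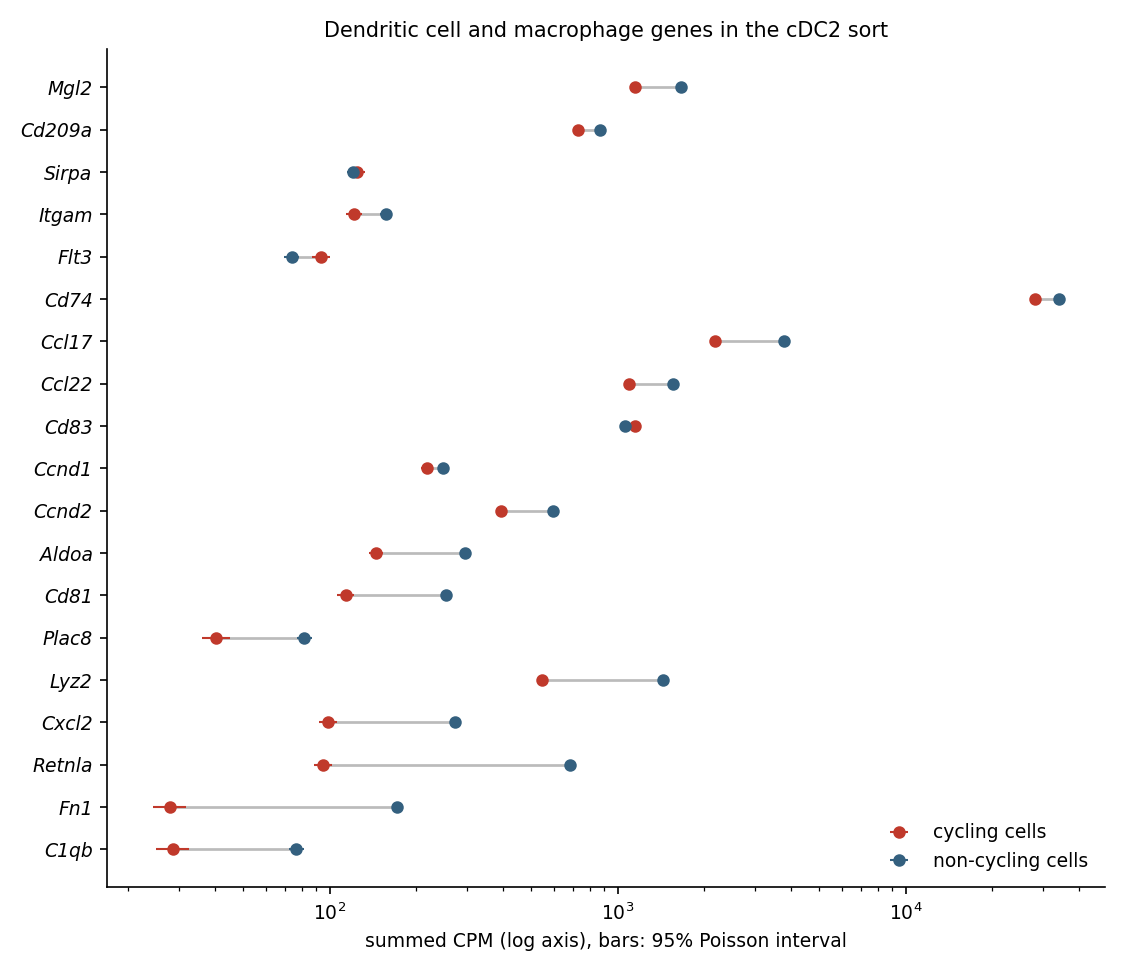
Summed CPM on a log axis for dendritic cell, cyclin, glycolysis and macrophage genes in cycling cells (red) and non-cycling cells (blue), with bars for the Poisson interval, often smaller than the point. Sirpa stands at 124 CPM in cycling and 120 CPM in non-cycling cells, and Retnla at 94.8 CPM in cycling and 685 CPM in non-cycling cells.

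In the 4 remaining lists no measured gene was called. Of 19 cytokine and growth factor genes 12 were measured, with a median log2 ratio of -0.03, and Il1b stood at 3986 CPM in cycling cells and 3531 CPM in non-cycling cells. The immediate early genes, which enzymatic dissociation can raise, had 21 of 22 measured and a median of 0.14, with Junb at 1165 CPM in cycling and 1064 CPM in non-cycling cells. Cholesterol and fatty acid synthesis had 17 of 22 measured and a median of 0.10, and interferon-stimulated genes 6 of 16 and a median of -0.13.

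Cells with cycle genes were also found outside the gate. With cells thinned to 5000 UMIs and called cycling at 2 or more UMIs of the 6 genes, the share was 15.9% within the gate (385 of 2426, interval 14.4 to 17.4). It was 7.04% among cells with 3 or more Fscn1 UMIs (5 of 71, 2.33 to 15.7), which rests on 5 cells. Among low-lectin cells, with under 3 UMIs of Mgl2 plus Cd209a and under 3 of Fscn1, it was 8.87% (18 of 203, 5.34 to 13.7). Whether the shares differ was not tested, because the intervals cover counting error within 1 library. The lectin limit is on raw UMIs, so a deeper cell can pass it more readily, and thinning left out 80 low-lectin cells. Without thinning, at a cycle sum of 4, the shares were 15.9%, 12.2% (9 of 74) and 6.36% (18 of 283) in the same order, with median depths of 13011.5, 10803.5 and 8953 UMIs. In the cDC1 sort the thinned share was 17.4% among cells with 3 or more Xcr1 and Clec9a UMIs (319 of 1836, 15.7 to 19.2). A difference from the cDC2 gate was not tested.

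The cycling cells of the cDC1 sort were counted by the same rule with Xcr1 and Clec9a as the gate, giving 322 cycling and 835 non-cycling cells. Their medians were 18740 UMIs in cycling and 12767 UMIs in non-cycling cells, 1.47 times as many. Of 6677 genes measured 441 were higher (6.6%) and 18 lower (0.27%). Of the genes higher in cycling cells 326 were higher in both sorts, 76.7% of those of the cDC2 sort and 73.9% of those of the cDC1 sort, while 2 were lower in both. Spindle genes had a median log2 ratio of 5.22 in the cDC2 sort and 5.03 in the cDC1 sort, and replication genes 2.40 and 2.63. Cycling cells of both sorts were chosen by the same division genes, which are among the 326. That choice largely sets the overlap and these medians in advance, so neither tests agreement between the sorts. Of the 441 genes higher in the cDC1 sort, 302 passed the CPM minimum through the cycling cells alone. Aldoa in the cDC1 sort stood at 163 CPM in cycling cells and 274 CPM in non-cycling cells. Cdkn1a was within 2-fold in the cDC2 sort, and stood at 226 CPM in cycling and 102 CPM in non-cycling cells of the cDC1 sort. Whether the sorts differ in any of these was not tested.

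**Figure D5:**
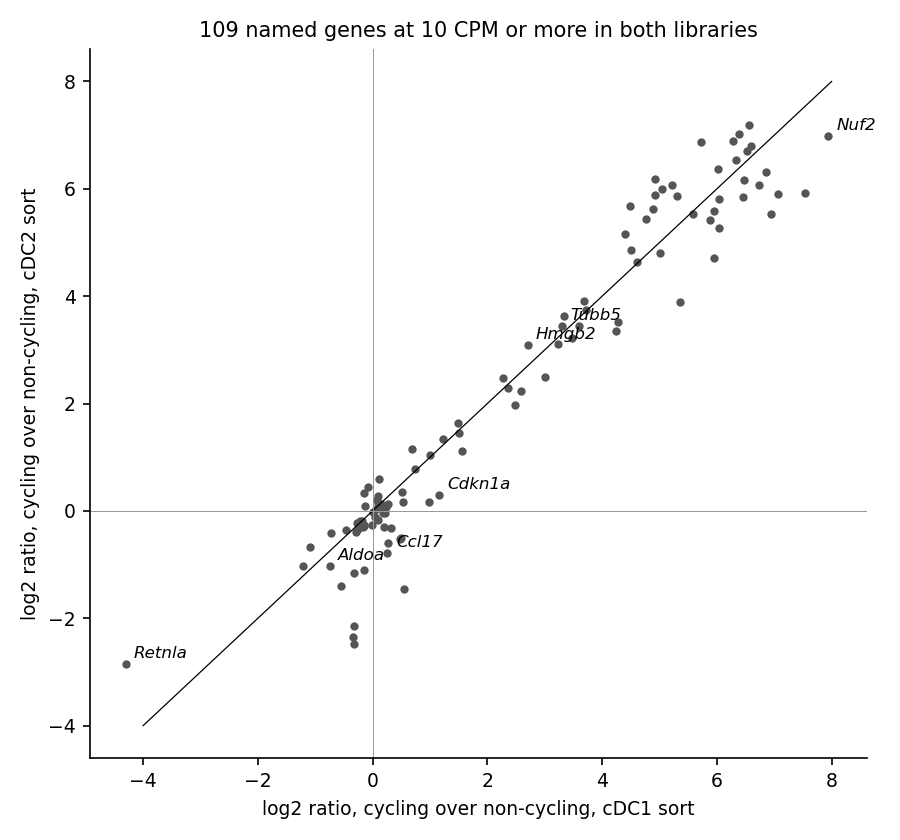
Log2 ratio, cycling over non-cycling cells, in the cDC2 sort (vertical) and cDC1 sort (horizontal) for 109 named genes at 10 CPM or more in both libraries and with a UMI in non-cycling cells of both; the line marks equal ratios. Division genes lie near the line at the upper right, and Retnla and Aldoa are lower in cycling cells of both sorts.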

How the data were processed

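Single-cell RNA of 2 lung sorts, 1 library each, was measured with the 10x v3.1 kit. The files the authors deposited hold UMI counts that were not normalized, 1 matrix per sort. Cell Ranger 3.2, Seurat and mm10 are named in the submitters' processing notes, and 3.0.2 is the software version per the file headers. How the authors picked barcodes is not stated. The cDC2 library held 3045 barcodes and 39188956 UMIs, the cDC1 library 2939 barcodes and 36021556 UMIs.

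Barcodes needed 500 genes, 1000 UMIs and no more than 10% of UMIs from mitochondrial genes, which kept 2835 of the cDC2 and 2574 of the cDC1 sort. UMIs were summed over cells, 7822987 in cycling and 14121689 in non-cycling cells of the cDC2 sort. CPM have exact Poisson intervals, ratios exact conditional binomial intervals and shares exact binomial intervals, all at 95%. A count of 0 was set to 3 counts. With 1 library per sort no test was run. Thinning drew UMIs at random without replacement, leaving out 1 cycling and 33 non-cycling cells under 5000 UMIs. The sum and ratio steps were tested on simulated sums with counting error alone, which leaves out spread between cells. Coordinates are from GENCODE vM21 (30934 of 31053 features matched by ID). Python 3.11.15, numpy 2.4.6, scipy 1.17.1, pandas 2.3.3 and matplotlib 3.10.9 were used.

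The members, the 23 gene lists (the clustered histone genes were taken by name) and the markers of 18 cell classes were chosen with earlier results of these data known. Genes were named as the rule's genes, the 12 largest and 12 smallest ratios at 50 CPM or more, and per list up to 4 called genes of largest ratio and the 2 of highest CPM in cycling cells, with some added as examples. Some genes that this rule names are not reported here. The alternatives changed the cycle limit, depth, comparison cells, scaling, expression minimum, mitochondrial limit and cells with other markers.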

Additional observations from a re-analysis of the deposited data

Results flagged for a closer look

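Of the named genes at 50 CPM or more in both libraries and reported here, leaving out the genes of the rule, 6 had ratios of opposite direction in the 2 sorts, each with a counting interval that excludes a ratio of 1. The difference between the sorts was not tested, because each is 1 library. For Ccl17 the log2 ratio was -0.79 in the cDC2 sort and 0.26 in the cDC1 sort, a difference of -1.05, and for its partner ligand Ccl22 it was -0.50 and 0.49, a difference of -0.99. Ccl17 stood at 1772 CPM in cycling cells and 1481 CPM in non-cycling cells of the cDC1 sort. For Ccnd2 the log2 ratio was -0.60 in the cDC2 sort and 0.26 in the cDC1 sort (difference -0.86), and for the chemokine receptor Ccr2 -0.32 and 0.32 (difference -0.64). The differences were -0.27 for Tgfb1 and 0.50 for Flt3. Spread between cells is not part of the counting intervals. Over the alternatives the log2 ratio of Flt3 in the cDC2 sort ran from -0.82 to 0.41, while those of Ccl17, Ccl22, Ccnd2, Ccr2 and Tgfb1 stayed negative. Mgl2, left out because it is part of the rule, had -0.53 in the cDC2 sort and 0.48 in the cDC1 sort. All 6 genes lie within 2-fold in both sorts.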

How the results depend on the processing

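No paired analysis was possible because each sort is 1 library, and no replicate could be left out. The counts of genes called came from 15 alternatives, 2 of them added after the data were seen. Genes higher numbered 425 of 6657 measured. The number measured changes with the setting, so the counts are not all on the same scale. The count kept within 1.5 times of 425 in all but the following alternatives. It was 225 of 6455 at a cycle sum of 2 or more and 1138 of 11819 with no CPM minimum and 10 UMIs. It was 121 of 2608 at 50 CPM and 1102 of 6659 without cells holding 5 UMIs of another class's markers. The last left 11 cycling and 137 non-cycling cells, because some markers (Nr4a1, Bst2, Tcf4 and Ccr7) are common in cDC2, and says little. Genes lower numbered 37 of 6657, with 11 of 6455 at a cycle sum of 2 and 58 of 6704 thinned to 5000 UMIs. They numbered 63 of 6593 under median-of-ratios scaling, which moves the median of all genes to -0.03. With no CPM minimum they were 416 of 11819, and at 50 CPM 16 of 2608. Without cells holding other markers they were 521 of 6659, and 24 of 6497 in the narrower version of it. The share of members among kept barcodes was 27.1% at a cycle sum of 2, 9.98% at 8, 12.2% without cells over the 95th percentile of UMIs and 4.37% without cells holding other markers. The ratio of median UMIs (1.62) was 1.33 at a sum of 2, 1.72 at 8, 1.49 with comparison cells of matched UMI range, 1.54 without the deepest cells and 1.10 without cells holding other markers. The share of members whose replication score, over its mean, exceeded the mitosis score was 50.5%, and 64.5%, 41.7% and 40.0% at a sum of 2, at 8 and without cells holding other markers. In the gate the thinned share was 9.90% at 2000 UMIs and 33.4% at 1 or more UMIs. It was 19.7% among Fscn1 cells at 1 or more, and among low-lectin cells 4% and 19.7%. Of 330 list medians 279 stayed within the median of their genes' counting intervals and none changed sign from a called value. Of 2079 values of named genes 5 changed direction from a called value: without cells holding other markers Retnla (0.014), Fn1 (1.13), Mgp (0.98) and C1qa (1.71), and in the narrower version Fn1 (0.18). The cause was not tested. Low genes rest on few UMIs, and 10 CPM is about 78 UMIs in cycling cells.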
